A study of Saccharomyces cerevisiae with 12 samples.

Results

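The nuclear genes for subunits of respiratory complexes III (cytochrome bc1) and IV (cytochrome c oxidase) and of complex V (the ATP synthase) were followed in Saccharomyces cerevisiae after the loss of oxygen. The members were set by name: 9 genes of complex III, 7 of complex IV and 16 of complex V, its inhibitors INH1 and STF1 included. Of these 32 genes, 31 had a row among the 6150 open reading frames (ORFs) of the table, and ATP19 (YOL077W-A) was not analysed here. A value on all 12 arrays was present for 28 of them, 8 in complex III, 5 in complex IV and 15 in complex V. BY4741, a haploid laboratory strain with whole or partial deletions of HIS3, LEU2, MET17 and URA3, was grown on glucose. It was then set on nylon membranes on solid YP acetate, a carbon source that yeast can use only by respiration, and exposed to pure nitrogen (N2) or to carbon monoxide (CO) for 15, 30, 45, 60 or 120 min or for 24 h. Each of the 12 arrays compared cells in 1 gas at 1 time, labelled with Cy5, with cells of the same strain and medium kept in room air for that time, labelled with Cy3. Values are log2 ratios of gas over air, where base 2 was taken from the size of the values and the direction from the dye assignment. Cell division was reversibly arrested under these gases, per the labels.

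Complex III takes electrons from ubiquinol, passes them through a Rieske iron-sulfur cluster and cytochrome c1 to cytochrome c, and pumps protons. Complex IV then hands the electrons to oxygen at a heme and copper centre, which CO can occupy in place of oxygen. Complex V lets protons flow back through its membrane part, Fo, and makes ATP in its soluble part, F1. When the proton gradient fails it can run in reverse and split ATP, a reaction that small inhibitor proteins block. The catalytic cores of complexes III and IV and the proton channel of complex V also contain subunits encoded in mitochondrial DNA, which were not analysed here. In yeast many of the nuclear genes are activated by the heme-regulated HAP complex, whose limiting subunit is Hap4.

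Each gas and time had a single array. Exposure times therefore stood in for replicates, and every p-value given here sets a change against how far these arrays differ from each other. There was no dye swap, so against air a constant dye effect on a gene cannot be told apart from a gas effect. Such an effect would cancel between times and between the gases. Members on the same array share its error and are not independent of each other. Across the 5672 ORFs with complete values, deviations from the mean of each gas correlated between same-time arrays at r = 0.255 to 0.776. The CO arrays of 30 and 45 min were closer to the N2 array of 15 min (r = 0.571 and 0.385) than to the N2 arrays of their own times (r = 0.34 and 0.255). The tests of the gas difference across times are therefore also summarized without each of these times. Counts at single times include them. Of 6 hypoxic genes used to check the direction of the ratio, OLE1, COX5B and TIR1 stood above air on both 120 min arrays, at 1.81, 1.68 and 0.95 in CO and 2.94, 1.70 and 1.12 in N2. HEM13, at -1.70 in CO and -1.04 in N2, ANB1, at -0.73 and -0.83, and DAN1, at 0.00 and -0.21, did not. None of the 4 genes deleted in the strain was called in any of the 6 comparisons. In bulk RNA, fewer cells with a transcript and less of it per cell cannot be told apart. The air reference differs from time to time. A change between times can therefore lie in the gas-exposed cells or in the air-kept cells, which cannot be told apart here. Words such as rose, fell, climbed and dropped refer to the ratios.

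**Figure D1:**
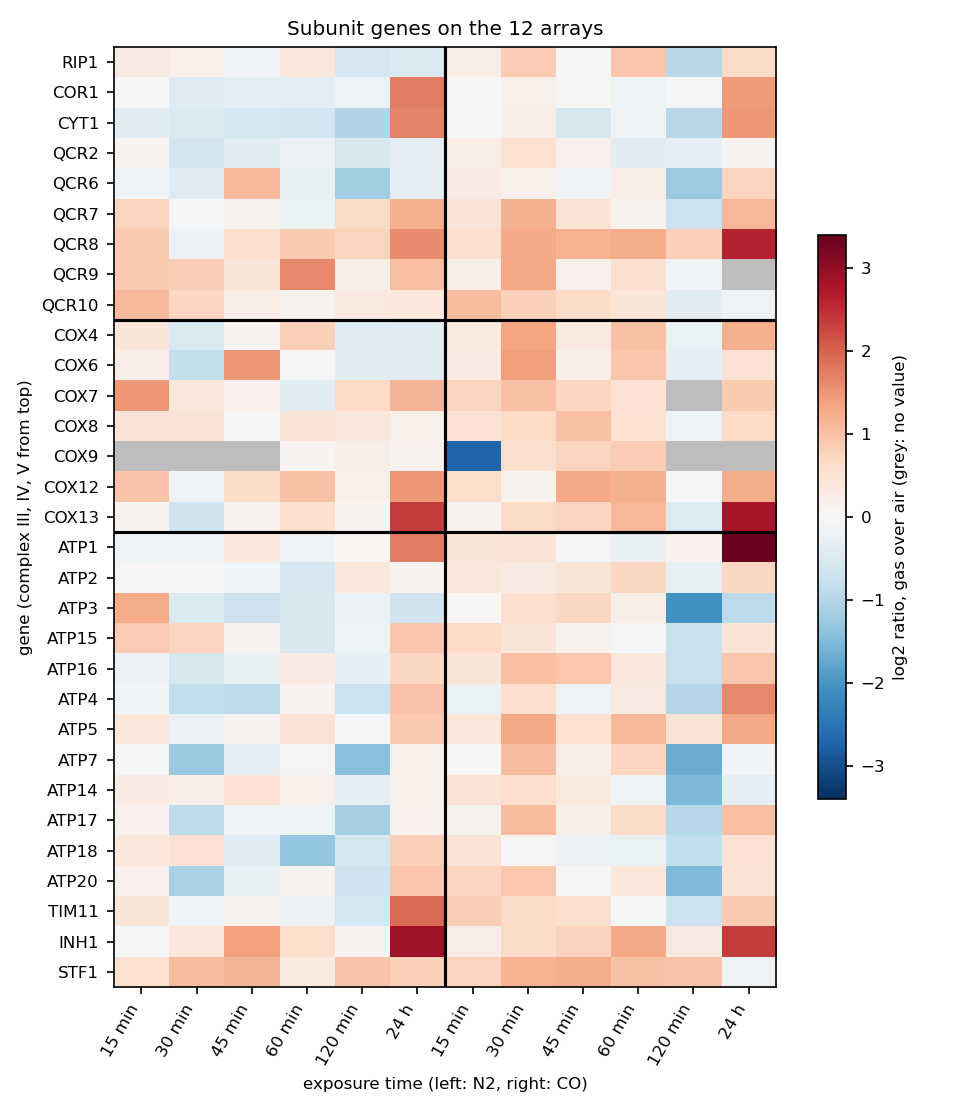
Heat map of the log2 ratio of gas over air for the 31 measured subunit genes (vertical axis, complexes III, IV and V separated by lines) on the 12 arrays (horizontal axis, exposure time, N2 at left and CO at right); colour gives the ratio and grey marks a missing value. In CO all 31 genes were above air at 30 min, 23 of 29 were below it at 120 min, and 24 of 29 were above it at 24 h.

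The subunit genes moved through phases that differed between the gases. In CO they stood above air early, dropped under it at 120 min and were above it again at 24 h. The median of the members was 0.37, 0.66, 0.34, 0.50, -0.46 and 0.88 from 15 min to 24 h, while the median of all ORFs on these arrays lay between -0.18 and 0.00. At 30 min 31 of 31 members were above air, where 49.8% of all ORFs were. That array had 11 members at least 2-fold above air, against 2.31% of all ORFs, among them COX6, QCR9, ATP7 and STF1. At 120 min 23 of 29 were below air (52.4% of all ORFs). Of the 29, 5 were at least 2-fold below it, a share near the 13.5% of all ORFs: ATP3, QCR6, ATP7, ATP14 and ATP20.

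In N2 the members as a group were above air at 15 min and at 24 h and nearer to it between. The medians were 0.30, -0.17, 0.09, 0.08, -0.18 and 0.82 in the same order of times. At 15 min 23 of 30 members were above air in N2 (51.4% of all ORFs) and 26 of 31 in CO (49.2% of all ORFs). At 30 min 10 of 30 members were above air (49.7% of all ORFs), and 1 was at least 2-fold above it (3.94% of all ORFs). At 24 h 25 of 31 were above air in N2 (48.7% of all ORFs) and 24 of 29 in CO (43.0% of all ORFs). At least 2-fold above air at that time were 11 members in N2 and 12 in CO, against 19.9% and 15.7% of all ORFs.

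Counts of members at least 2-fold from air, of the 29 to 31 measured on each array, followed these phases only in part. In N2 the count above air before 24 h was highest at 45 min, where the median was 0.09. In N2, 3 members were that far above air at 15 min (1.67% of all ORFs), 1 at 30 min, 4 at 45 min (5.28%), 1 at 60 min (6.06%) and 0 at 120 min (9.33%). Below air in N2 there were 0 at 15 min (0.5%), 2 at 30 min (3.71%), ATP7 and ATP20, 0 at 45 min (6.59%) and 1 at 60 min (8.91%), ATP18. At 120 min ATP7, ATP17, QCR6 and CYT1 made 4 of 31 (11.7%), a share close to that of all ORFs. At 24 h there were 0 (20.1%). In CO, 1 member was at least 2-fold above air at 15 min (0.892%), QCR10, 3 at 45 min (2.48%), 7 at 60 min (5.64%) and 0 at 120 min (10.2%). Below air in CO there was 1 at 15 min (0.594%), COX9, and 0 at 30, 45 and 60 min and 24 h (3.3%, 6.15%, 9.98% and 21.6%).

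**Figure D2:**
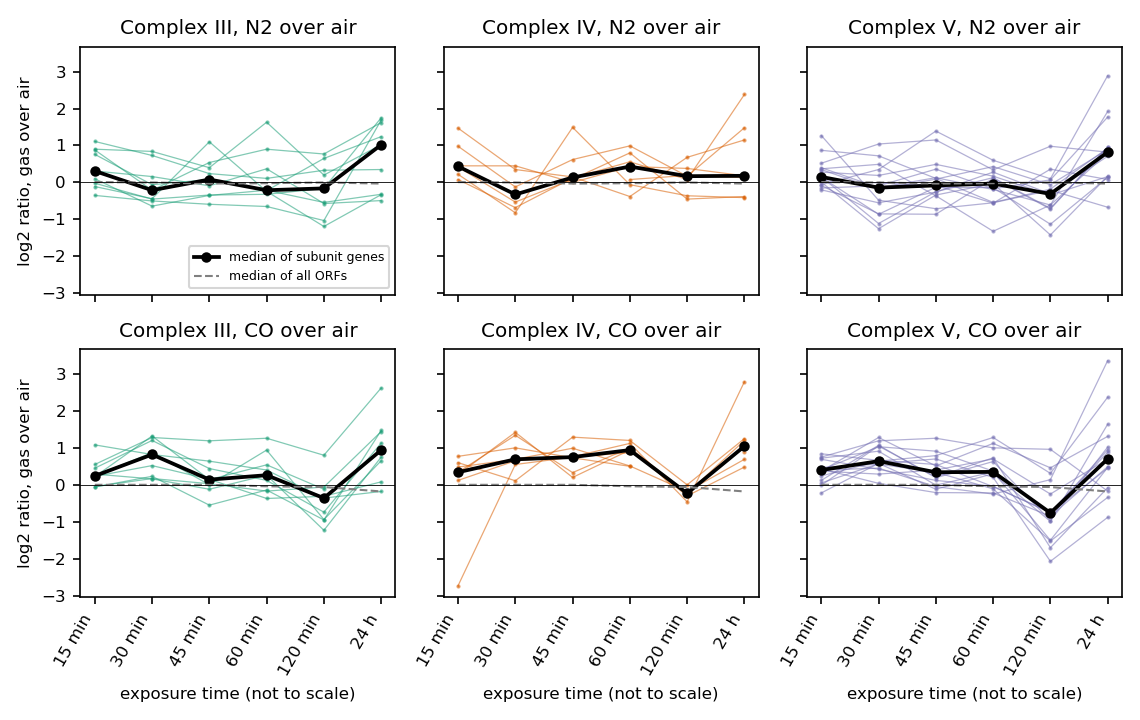
Log2 ratio of gas over air (vertical axis) at each exposure time (horizontal axis, evenly spaced), for N2 in the upper row and CO in the lower row, with a column for each complex. Thin lines are genes, black points their median and the dashed line the median of all ORFs; in CO the medians at 120 min were -0.36 for complex III, -0.23 for complex IV and -0.76 for complex V.

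The complexes took part in the phases to different degrees. Complex V had the lowest CO median at 120 min, -0.76, with 11 of 15 genes below air and a range from -2.07 for ATP3 to 0.96 for STF1. Complex IV genes stayed closest to air on that array, between -0.46 and 0.00 in the 5 genes measured. They were also the highest in CO at 45 and 60 min, with medians of 0.75 and 0.94 and 7 of 7 genes above air at each time, against 0.14 and 0.26 for complex III and 0.34 and 0.35 for complex V. At 24 h in N2 the median of complex IV was 0.18, against 1.02 for complex III and 0.82 for complex V, but the ranges overlapped. They were -0.41 to 2.38 for IV, -0.49 to 1.75 for III and -0.67 to 2.89 for V. At least 2-fold above air on that array were COX7, COX12 and COX13 of complex IV. From complex III there were COR1, CYT1, QCR7, QCR8 and QCR9, and from complex V ATP1, INH1 and TIM11. In CO the medians of the complexes at 24 h were 0.94, 1.04 and 0.70 for III, IV and V. These are descriptions of single arrays, and differences between complexes were not tested.

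Steps between neighbouring times show where the members turned together. From 15 to 30 min 25 of 30 members dropped in N2 (51.2% of all ORFs dropped), 8 of them by at least 2-fold (1.79% of all ORFs). In CO 24 of 31 climbed over the same step (49.1% of all ORFs), 5 by at least 2-fold (0.909% of all ORFs). From 60 to 120 min in CO 26 of 29 dropped (48.2% of all ORFs), 13 by at least 2-fold (5.35% of all ORFs). From 120 min to 24 h 27 of 28 climbed in CO (47.4% of all ORFs), 21 by at least 2-fold (13.2% of all ORFs). STF1 was the exception. The same last step in N2 had 25 of 31 climbing (50.6% of all ORFs) and 14 by at least 2-fold (16.7% of all ORFs).

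Carbon monoxide set against nitrogen asks whether CO does more than remove oxygen. Most subunit genes were higher in CO than in N2 on the arrays of 30, 45 and 60 min, a description of single arrays that no test across times bore out for any member. The median difference, CO minus N2, was 0.02 at 15 min, 0.72 at 30 min, 0.37 at 45 min and 0.50 at 60 min, then -0.24 at 120 min and -0.11 at 24 h. At 30 min 28 of 30 members were higher in CO (48.9% of all ORFs), the exceptions being ATP15 by -0.30 and ATP18 by -0.45. Of these, 13 were at least 2-fold higher (2.73% of all ORFs), with ATP7 at 2.30, COX6 at 2.24 and ATP20 at 2.02. At 45 min 24 of 30 were higher (49.5% of all ORFs), and 27 of 31 at 60 min (46.4% of all ORFs). At 24 h 14 of 29 were higher (44.7% of all ORFs), of which 5 at least 2-fold, ATP1, RIP1, QCR6, COX4 and QCR8 (4.17% of all ORFs), while TIM11 was the 1 member at least 2-fold lower (12.3% of all ORFs). At 30, 45 and 60 min together 20 of the 28 genes with complete values were higher in CO and 0 lower, where 15.0% and 17.2% of all ORFs were.

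The gas difference did not pass a test across the times. With exposure time as a block, limma called 0 of 28 members and 0 of all ORFs in either direction (0.0%). At an unadjusted p under 0.05 there were 5 members and 584 ORFs. The 5 were COX4, by 0.67 ± 0.26 (SE), ATP17 by 0.67 ± 0.23, ATP5 by 0.59 ± 0.18, ATP16 by 0.54 ± 0.24 and QCR8 by 0.53 ± 0.22. Adjusted p-values of the members were 0.374 at least. The median over the members was 0.27, against -0.03 over all ORFs, and it was 0.15 without the 30 min arrays and 0.33 without the 45 min arrays. At an unadjusted p under 0.05 there were 2 members and 465 ORFs without 30 min, and 5 members and 425 ORFs without 45 min. ATP5 was the 1 member higher in CO at all 6 times (2.54% of all ORFs).

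A change of the gas difference with time was tested as its mean at 120 min and 24 h against its mean from 15 to 60 min. An air sample shared by both gases would cancel in this comparison. It was negative for 24 of 28 members, with a median of -0.42 against -0.04 over all ORFs. Without the 30 min arrays the median over the members was -0.38, and without the 45 min arrays -0.56. The test called 0 members and 0 ORFs (0.0%) and had 7 members and 471 ORFs at an unadjusted p under 0.05. The lowest estimates were ATP3 at -1.53 ± 0.72 and ATP20 at -1.40 ± 0.49.

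**Figure D3:**
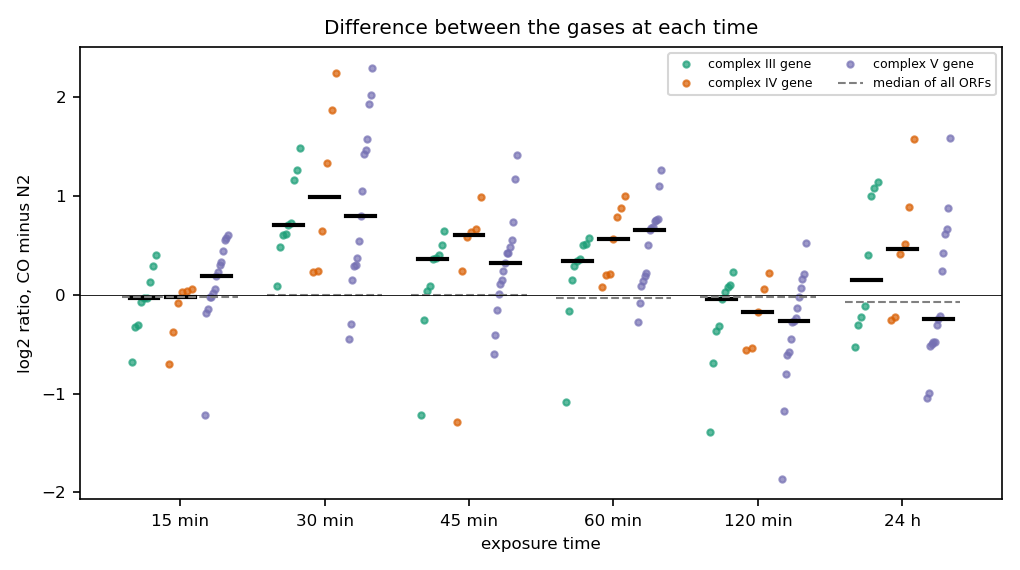
Difference of the log2 ratios, CO minus N2 (vertical axis), at each exposure time (horizontal axis). Points are subunit genes coloured by complex, black bars the median of each complex and dashed bars the median of all ORFs; the complex medians at 30 min were 0.71, 0.99 and 0.80 for III, IV and V, and those at 120 min -0.04, -0.17 and -0.27.

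The 24 h ratios were set against those of the earlier times, each taken to air of its own time. Of 28 members 12 rose and 0 fell, where 22.5% of all ORFs rose and 25.1% fell (limma, adjusted p under 0.05). They were COR1, CYT1, QCR7 and QCR8 of complex III, COX13 of complex IV, and ATP1, ATP4, ATP5, ATP15, ATP18, TIM11 and INH1 of complex V. The median over the members was 0.68, against -0.06 over all ORFs, and 22 of 28 estimates were positive. Both 24 h arrays lay above the 5 earlier times of their own gas for 10 members (21.2% of all ORFs) and below them for 0 (23.0%). The 24 h level rests on a single time without a replicate. Its arrays, 1 per gas, correlated at r = 0.746 in the pairing check and may share an air sample, yet they entered the fit as independent, so these p-values do not cover the spread between repeats of 24 h. With each time given its own level 11 of 28 members rose, where 1322 of 5672 ORFs did. The ratios of all genes spread out with time, with an SD across ORFs of 0.374 in N2 and 0.357 in CO at 15 min against 1.27 and 1.20 at 24 h. With quantile normalization, which gives every array the same spread, 3 members rose, COR1, CYT1 and ATP1, and STF1 fell by 1.05. Of 5672 ORFs 386 rose and 341 fell with it.

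Between 15 and 30 min and 60 and 120 min the estimates leaned downward, for 23 of 28 members, with a median of -0.34 against -0.02 over all ORFs. Of these 3 fell and 0 rose, QCR10, ATP15 and ATP18, where 9.29% of all ORFs fell and 3.44% rose, so the share of members called was close to that of all ORFs. Without the 120 min or the 15 min arrays 0 members were called, where 35 and 0 ORFs fell. Without the 60 min arrays 9 of 28 members fell, where 650 of 5672 ORFs did.

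**Figure D4:**
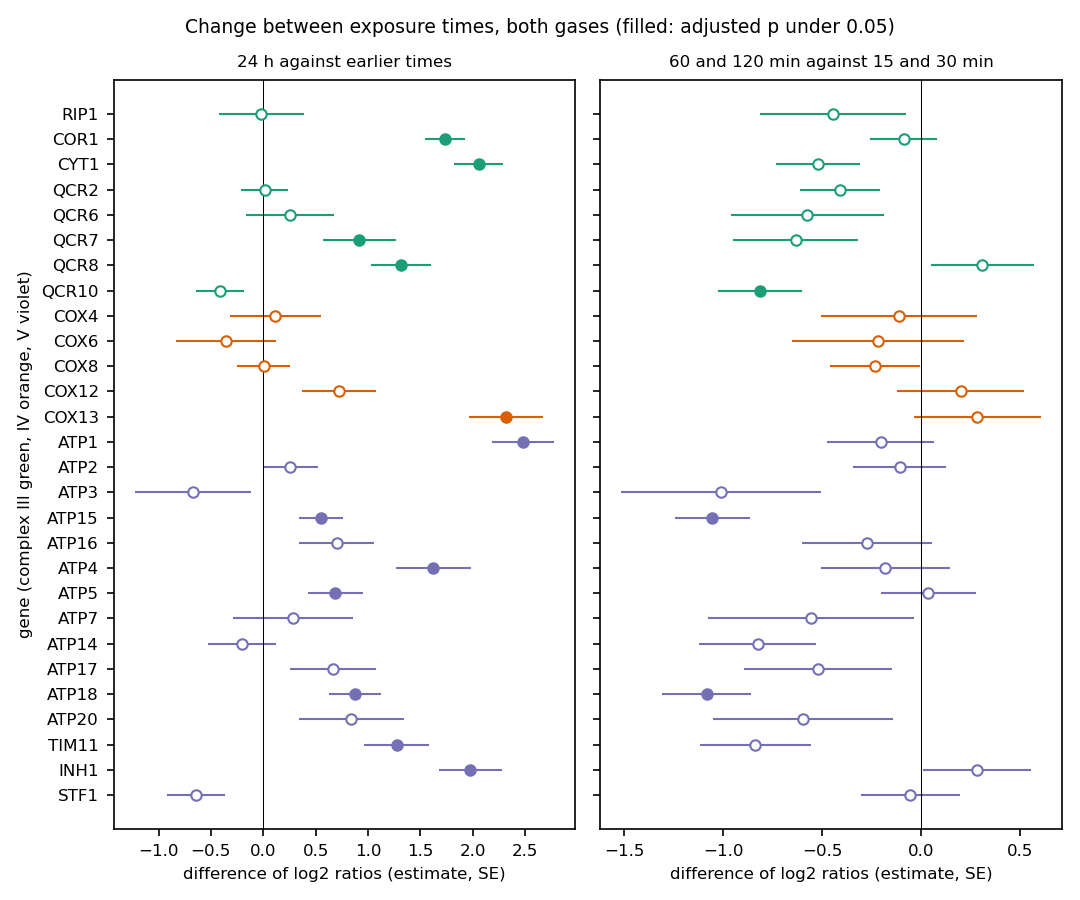
Estimates of the change between exposure times over both gases (horizontal axes, difference of log2 ratios with SE) for the 28 genes with complete values (vertical axis), for 24 h against earlier times at left and for 60 and 120 min against 15 and 30 min at right. Filled points passed an adjusted p of 0.05: 12 genes at left, all higher, and 3 at right, all lower.

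In the core of complex III the 24 h rise was uneven. CYT1 (YOR065W), cytochrome c1, stood at -0.35, -0.50, -0.59, -0.65, -1.03 and 1.69 in N2 from 15 min to 24 h and at -0.06, 0.23, -0.55, -0.14, -0.95 and 1.47 in CO. It was therefore below air on 9 of its 10 arrays up to 120 min and above it on both at 24 h. Its 24 h value was 2.06 ± 0.23 above the earlier times (SE, limma adjusted p = 4.61e-05). COR1 (YBL045C), a core protein that faces the matrix, read -0.02, -0.45, -0.34, -0.32, -0.16 and 1.75 in N2 and -0.05, 0.17, 0.03, -0.17, -0.06 and 1.44 in CO. Before 24 h all of its values lay within 0.45 of air, and it then rose by 1.73 ± 0.19 (adjusted p = 3.43e-05). Both genes fell in N2 when the 24 h arrays were left out of the mean, CYT1 by 0.62 (adjusted p = 0.00828) and COR1 by 0.26 (adjusted p = 0.0443). That fit called 2 of 28 members and 1278 of 5672 ORFs lower in N2, so the share of members was below that of all ORFs. With all times neither gene passed in N2 (limma adjusted p = 0.581 for CYT1 and 0.837 for COR1).

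The other core genes had no such rise. QCR2 (YPR191W), the partner core protein of COR1, ranged from -0.64 to 0.10 in N2 and from -0.37 to 0.52 in CO, with 24 h values of -0.32 and 0.08. RIP1 (YEL024W), the Rieske iron-sulfur protein, stood at 0.31, 0.16, -0.09, 0.37, -0.57 and -0.49 in N2 and at 0.24, 0.87, 0.00, 0.94, -0.94 and 0.65 in CO. At 24 h the gases had opposite signs for RIP1, a difference of 1.14. For the 24 h comparison RIP1 was at -0.02 ± 0.41 (adjusted p = 0.972) and QCR2 at 0.02 ± 0.22 (adjusted p = 0.961).

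Of the small accessory subunits of complex III, QCR8 was the most constantly raised. QCR8 (YJL166W), a membrane subunit near the quinone site, read 0.88, -0.21, 0.54, 0.90, 0.77 and 1.62 in N2 and 0.55, 1.28, 1.19, 1.26, 0.80 and 2.62 in CO. It was above air on 11 of 12 arrays, the exception being N2 at 30 min. Its rise against air was 1.28 ± 0.24 in CO and 0.75 ± 0.24 in N2 (adjusted p = 0.00236 and 0.0276). The N2 call was lost without any of 15, 45, 60 or 120 min (adjusted p up to 0.0835), and with the 15 min ratio subtracted its N2 mean was -0.16 (adjusted p = 0.706). It also rose at 24 h, by 1.31 ± 0.29 (adjusted p = 0.0029), or 0.12 with quantile normalization (adjusted p = 0.875).

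QCR7 (YDR529C), which contacts the matrix side of the complex, stood at 0.76, -0.06, 0.08, -0.22, 0.65 and 1.24 in N2 and at 0.45, 1.20, 0.44, 0.12, -0.74 and 1.13 in CO. The gases differed most at 120 min, by -1.39, and were close at 24 h. Its 24 h rise of 0.92 ± 0.35 (adjusted p = 0.0453) was lost without 15 or 60 min and with each time given its own level (adjusted p up to 0.0844), and was 0.22 with quantile normalization (adjusted p = 0.763). QCR10 (YHR001W-A), a small subunit that yeast can do without, went the other way. Its N2 values were 1.11, 0.73, 0.24, 0.11, 0.33 and 0.35 and its CO values 1.08, 0.82, 0.64, 0.40, -0.36 and -0.18, so the 15 min array was its highest in each gas. It fell by 0.82 ± 0.21 between the early and the 60 and 120 min arrays (adjusted p = 0.0304), a call lost without 15, 30 or 120 min (adjusted p up to 0.372).

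QCR9 (YGR183C), a small membrane subunit, had no value in CO at 24 h and ranged from 0.20 to 1.63 in N2, above air at all 6 times, and from -0.12 to 1.32 in CO. In a fit of ORFs with at least 10 values it rose in N2 by 0.83 ± 0.20 (adjusted p = 0.00771), where 17.6% of all ORFs in that fit rose. QCR6 (YFR033C), the acidic hinge protein, stood at -1.19 in N2 and -1.23 in CO at 120 min and at 1.10 in N2 at 45 min, and passed no test.

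In complex IV, COX13 rose at 24 h and most of the others were already above air in CO. COX13 (YGL191W), a peripheral subunit that is not needed for the assembly of the oxidase, read 0.08, -0.68, 0.12, 0.56, 0.08 and 2.38 in N2 and 0.12, 0.65, 0.76, 1.12, -0.46 and 2.79 in CO. Both 24 h values were above every earlier value, and the rise was 2.32 ± 0.35 (adjusted p = 0.000301). With quantile normalization it was 1.06 (adjusted p = 0.0884).

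COX12 (YLR038C), a subunit on the side of the intermembrane space, stood at 0.98, -0.12, 0.62, 0.99, 0.17 and 1.48 in N2 and at 0.60, 0.11, 1.29, 1.20, 0.00 and 1.25 in CO. Its rise against air was 0.69 ± 0.22 in N2 and 0.74 ± 0.22 in CO (adjusted p = 0.0267 and 0.0214). The N2 call was lost without 15, 45 or 60 min or 24 h (adjusted p up to 0.084), the CO call without 45 or 60 min (adjusted p up to 0.0897), and with the 15 min ratio subtracted the means were -0.35 in N2 and 0.17 in CO (adjusted p = 0.35 and 0.669).

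COX4 (YGL187C), a zinc-binding subunit on the matrix side, stood at 0.42, -0.53, 0.09, 0.80, -0.45 and -0.38 in N2 and at 0.34, 1.34, 0.33, 1.00, -0.23 and 1.20 in CO. It was higher in CO than in N2 by 1.87 at 30 min and by 1.58 at 24 h, and between -0.08 and 0.24 apart at the other times. It rose in CO by 0.66 ± 0.22 (adjusted p = 0.0322), a call lost without 30, 45 or 60 min or 24 h (adjusted p up to 0.108) and with the 15 min ratio subtracted (0.39, adjusted p = 0.278). In N2 it stood at -0.01 ± 0.22.

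COX8 (YLR395C), a single-helix membrane subunit, had N2 values of 0.45, 0.45, 0.00, 0.43, 0.38 and 0.18 and CO values of 0.48, 0.69, 0.99, 0.51, -0.18 and 0.69. Its rise in CO was 0.53 ± 0.14 (adjusted p = 0.0114), 0.44 without 45 min (adjusted p = 0.0525) and 0.06 with the 15 min ratio subtracted (adjusted p = 0.818). COX6 (YHR051W), a matrix-side subunit, ranged from -0.82 to 1.49 in N2 and from -0.30 to 1.42 in CO, with its N2 peak at 45 min and its CO peak at 30 min, and passed no test. COX7 (YMR256C), another membrane subunit, had no value in CO at 120 min. Its rise was 0.57 ± 0.20 in N2 and 0.78 ± 0.22 in CO (adjusted p = 0.0401 and 0.0177) in the fit of ORFs with at least 10 values, where 12.5% of all ORFs rose in CO. COX9 (YDL067C), a small membrane subunit, had 7 values, of which -2.73 in CO at 15 min lay far from the others, between 0.08 and 0.87.

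In the F1 part of complex V the alpha subunit parted from the beta subunit at 24 h. ATP1 (YBL099W), the alpha subunit, read -0.15, -0.09, 0.36, -0.17, 0.07 and 1.77 in N2 and 0.40, 0.45, -0.05, -0.25, 0.14 and 3.36 in CO. It stayed within 0.45 of air through 120 min and had at 24 h in CO the highest value of any member on any array. Its rise was 2.48 ± 0.30 (adjusted p = 6.5e-05). ATP2 (YJR121W), the catalytic beta subunit, which pairs with alpha in equal number, stood at 0.04, -0.01, -0.08, -0.56, 0.36 and 0.08 in N2 and at 0.37, 0.29, 0.40, 0.70, -0.25 and 0.70 in CO. Its 24 h change was 0.26 ± 0.26 (adjusted p = 0.438), and the difference between ATP1 and ATP2 was not tested.

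The central stalk genes differed from each other. ATP3 (YBR039W), the rotating gamma subunit, was at 1.27 in N2 at 15 min and between -0.71 and -0.21 there afterwards, and at -2.07 in CO at 120 min, the lowest value of the synthase genes. It passed no test of the main comparisons. ATP15 (YPL271W), the epsilon subunit, fell by 1.05 ± 0.19 between the early arrays and 60 and 120 min (adjusted p = 0.00927) and rose by 0.55 ± 0.21 at 24 h (adjusted p = 0.0464). The first call was lost without 15 or 120 min (adjusted p up to 0.227) and the second without 15, 30 or 120 min or with each time given its own level (adjusted p up to 0.0964), and was 0.09 with quantile normalization (adjusted p = 0.841). ATP16 (YDL004W), the delta subunit, stood between -0.55 and 0.71 in N2 and between -0.76 and 1.03 in CO and passed none.

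Genes of the peripheral stalk and of the membrane part rose at 24 h in 4 of 8 cases (22.5% of all ORFs), and all 4 calls were lost with quantile normalization. ATP4 (YPL078C), the stalk's b subunit, stood at -0.08, -0.85, -0.86, 0.11, -0.72 and 0.97 in N2 and at -0.22, 0.58, -0.12, 0.30, -0.99 and 1.64 in CO. It was near or under air until 120 min apart from CO at 30 min, and rose by 1.62 ± 0.36 at 24 h (adjusted p = 0.00318, and 0.0843 with quantile normalization). TIM11 (YDR322C-A), the subunit e through which synthases pair into dimers, read 0.40, -0.14, 0.13, -0.19, -0.61 and 1.92 in N2 and 0.84, 0.66, 0.55, -0.05, -0.74 and 0.88 in CO. Its 120 min value was the lowest in each gas and its 24 h value the highest, with a rise of 1.27 ± 0.31 (adjusted p = 0.00546), or 0.47 with quantile normalization (adjusted p = 0.367).

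ATP5 (YDR298C), the oligomycin-sensitivity protein that ties the stalk to F1, ranged from -0.19 to 0.89 in N2 and from 0.37 to 1.31 in CO, above air at all 6 times in CO. It rose in CO by 0.84 ± 0.17 (adjusted p = 0.00299), or 0.57 with the 15 min ratio subtracted (adjusted p = 0.0552). Its 24 h rise of 0.69 ± 0.26 (adjusted p = 0.0485) was lost without 15 or 120 min (adjusted p up to 0.0862) and in the fit of ORFs with at least 10 values (adjusted p = 0.0516), and was 0.06 with quantile normalization (adjusted p = 0.925). ATP18 (YML081C-A), a small membrane subunit, fell by 1.08 ± 0.23 between the early arrays and 60 and 120 min (adjusted p = 0.0146, lost without 15 or 120 min at up to 0.277) and rose by 0.88 ± 0.25 at 24 h (adjusted p = 0.0123, and 0.224 with quantile normalization). ATP7, ATP14, ATP17 and ATP20, of the stalk and the membrane part, passed no test. At 120 min these 4 stood between -1.42 and -0.34 in N2 and between -1.70 and -0.97 in CO.

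The inhibitor genes took different courses. INH1 (YDL181W), which blocks ATP splitting by F1, stood at -0.06, 0.35, 1.39, 0.60, 0.10 and 2.89 in N2 and at 0.24, 0.64, 0.79, 1.28, 0.31 and 2.37 in CO. It was above air on 11 of 12 arrays and rose at 24 h by 1.98 ± 0.30 (adjusted p = 0.000282, and 0.202 with quantile normalization). STF1 (YDL130W-A), a related inhibitor, stood at 0.52, 1.04, 1.15, 0.34, 0.98 and 0.82 in N2 and at 0.75, 1.19, 1.26, 1.00, 0.96 and -0.17 in CO. It was raised at every time but 24 h in CO. The rise of STF1 against air was 0.81 ± 0.17 in N2 and 0.83 ± 0.17 in CO (adjusted p = 0.00383 and 0.00359), and INH1 stood at 0.88 ± 0.34 and 0.94 ± 0.34 (adjusted p = 0.058 and 0.0513). With the 15 min ratio subtracted STF1 lost both calls, with 0.35 for N2 and 0.10 for CO (adjusted p = 0.235 and 0.758).

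Averaged over the 6 times, few members passed against air. In N2 3 of 28 rose and 0 fell, QCR8, COX12 and STF1, where 17.6% of all ORFs rose and 20.2% fell. In CO 6 rose and 0 fell, QCR8, COX4, COX8, COX12, ATP5 and STF1, where 12.7% of all ORFs rose and 19.4% fell. The median over the members was 0.04 in N2 and 0.36 in CO, against -0.02 and -0.04 over all ORFs. With exposure time as a block 7 of 28 rose and 1 fell in N2, where 1597 and 1740 of 5672 ORFs did. In CO 11 rose with the block, where 1441 ORFs did. In N2 1 member rose without 45 min and 1 without 60 min (619 and 668 ORFs). In CO 3 rose without 45 min and 10 without 120 min (471 and 369 ORFs). Subtracting the 15 min ratio takes out a constant dye effect, along with any response already present at 15 min. With this subtraction 0 rose in N2 and 1, QCR8, in CO (354 and 346 ORFs).

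Genes that build or serve these complexes were grouped by function. Of 19 measured assembly factors of complex IV, 8 rose and 2 fell in N2, 6 rose and 1 fell in CO, and at 24 h 8 rose and 1 fell against the earlier times. The shares of all ORFs that rose and fell were 17.6% and 20.2% in N2, 12.7% and 19.4% in CO, and 22.5% and 25.1% at 24 h. COX19 (YLL018C-A), a copper-related factor, rose by 1.61 ± 0.29 in N2 and 1.46 ± 0.29 in CO (adjusted p = 0.00153 and 0.00279). With the 15 min ratio subtracted its CO call was lost (adjusted p = 0.107). At 24 h OXA1 (YER154W), which inserts subunits into the inner membrane, rose by 1.72 ± 0.18 (adjusted p = 3.16e-05). MSS51 (YLR203C), which controls synthesis of the mitochondrial subunit Cox1, rose by 1.59 ± 0.22 (adjusted p = 0.000152), and SCO1 (YBR037C), a copper chaperone, by 1.38 ± 0.24 (adjusted p = 0.000664, and 0.441 with quantile normalization). Of 6 assembly factors of complex III 2 rose at 24 h (22.5% of all ORFs), CBP6 (YBR120C) by 1.58 ± 0.24 and BCS1 (YDR375C), which inserts the Rieske protein, by 1.21 ± 0.20 (adjusted p = 0.000267 and 0.000549). With quantile normalization CBP6 was at an adjusted p of 0.0579.

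Of 6 assembly factors of complex V 2 fell in each gas and 0 rose, where 20.2% of all ORFs fell in N2 and 19.4% in CO. ATP23 (YNR020C), a protease and chaperone of the channel subunit Atp6, stood at -1.35 ± 0.18 in N2 and -1.37 ± 0.18 in CO (adjusted p = 0.00031 and 0.000304). ATP12 (YJL180C), a chaperone of the alpha subunit, stood at -1.21 ± 0.23 and -1.16 ± 0.23 (adjusted p = 0.00215 and 0.0029). With the 15 min ratio subtracted the N2 call of ATP23 was lost (adjusted p = 0.157). Of 10 activators of mitochondrial translation 5 fell and 1 rose in N2 and 6 fell in CO, beside the same shares of all ORFs, AEP2 (YMR282C) among them by 1.37 ± 0.26 under N2 and 1.39 ± 0.26 under CO (adjusted p = 0.00209 and 0.00224). At 24 h 4 of the 10 rose and 1 fell against the earlier times (22.5% and 25.1% of all ORFs), among them PET309 (YLR067C) by 1.16 ± 0.21 (adjusted p = 0.000975). At 24 h PET309 stood at 0.33 in N2 and -0.06 in CO. Over the 6 times it was below air, at -0.80 ± 0.22 in N2 and -0.84 ± 0.22 in CO (adjusted p = 0.0143 and 0.0128). Both of those calls were lost without 45, 60 or 120 min (adjusted p up to 0.058) and with the 15 min ratio subtracted (adjusted p = 0.221 and 0.0977).

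The carriers that exchange ATP and phosphate across the inner membrane rose at 24 h in 3 of 4 cases (22.5% of all ORFs), PIC2 (YER053C) by 1.91 ± 0.28, AAC3 (YBR085W) by 1.45 ± 0.23 and MIR1 (YJR077C) by 1.38 ± 0.41 (adjusted p = 0.000201, 0.000393 and 0.0164). The calls of AAC3 and MIR1 were lost with quantile normalization (adjusted p = 0.0933 and 0.0977). HAP4 (YKL109W) stood at -0.75, -1.28, -0.57, -0.53, -0.05 and 2.03 in N2 and at -0.66, -0.78, -0.83, -0.75, 0.07 and 1.79 in CO, and rose by 2.54 ± 0.24 (adjusted p = 1.45e-05). HAP3 (YBL021C), another subunit of the activator, rose by 0.83 ± 0.22 and HAP2 (YGL237C) fell by 1.49 ± 0.18 (adjusted p = 0.00866 and 7.28e-05), while HAP5 passed no test. The call of HAP3 was lost with quantile normalization (adjusted p = 0.145).

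Cytochrome c and subunit V of complex IV exist in aerobic and hypoxic isoforms. CYC1, the aerobic cytochrome c, had 10 values and stood at 1.35 in CO and -0.07 in N2 at 30 min, -0.46 and -0.40 at 120 min and 1.02 in N2 at 24 h. COX5A, the aerobic subunit V, stood at 1.00 in CO and -0.29 in N2 at 30 min and at -0.74 and 0.46 at 120 min. The hypoxic isoforms stood well above air late. COX5B (YIL111W) read 2.38 under CO and 2.33 under N2 after 24 h, and rose by 1.70 ± 0.23 against the earlier times (adjusted p = 0.00014, and 0.103 with quantile normalization). CYC7 (YEL039C) read 2.60 and 1.89, and rose by 1.32 ± 0.35 (adjusted p = 0.00913, and 0.806 with quantile normalization).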

How the data were processed

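The deposited table holds log2 ratios of gas over air made by the authors for 6150 ORFs on 12 two-colour arrays, per the labels with Cy5 on the gas-exposed and Cy3 on the air-exposed sample. Background correction, normalization, the array platform and whether the gases shared an air sample are not given in sources used here. Array medians ran from -0.18 to 0.01, and the values were used as deposited. Symbols were matched through RefSeq R64 locus tags, for 32 of 32 members.

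Linear models (lmFit and eBayes of limma 3.58.1, R 4.3.3) were applied to the 5672 ORFs with 12 values, and p-values were adjusted over all of them by Benjamini and Hochberg's method at 0.05. The comparisons were each gas against air, CO minus N2 with time as a block, 24 h against earlier times, 60 and 120 min against 15 and 30 min, and the change of the gas difference. Fits were run on simulated data with independent noise, of equal spread for a gene on every array. That simulation held neither the correlation of same-time arrays nor the growth of spread with time, so it does not test the fits under these. Same-time arrays count as pairs, since the labels match each to air of that time and all 6 correlations exceeded 0.1. The pairs enter CO minus N2 and the change of the gas difference, while the other fits have no block and take it as an alternative. At least 2-fold means a log2 difference of 1 or more. Values on every array are given for up to 4 called members with the largest estimates in each complex and for RIP1, CYT1, ATP1, ATP2, INH1 and STF1. Of each other list, genes are named from among the up to 4 called ones with the largest estimates, plus HAP4, COX5A, COX5B and CYC7. CBP4, CYT2, CBP1 and PET111 were also among those and are not described. QCR10's values, HAP5 and CYC1 were added after their values were seen. Members and lists were chosen with earlier results of these data known. With 1 array per gas and time, the number of arrays limits the precision. No sequences were analysed here.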

Additional observations from a re-analysis of the deposited data

Results flagged for a closer look

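Of the values of the members in each gas, 10 lay far from those of the other times, by a criterion that flags about 1 group in 20 by chance. At 24 h these were COR1 at 1.75 in N2 and 1.44 in CO, CYT1 at 1.69 in N2, QCR8 at 2.62 in CO, and ATP1 at 1.77 in N2 and 3.36 in CO, all above the earlier times. STF1 at -0.17 in CO at 24 h was below all earlier times. COX9 stood at -2.73 in CO at 15 min, with 4 values in that gas. ATP3 at 1.27 in N2 at 15 min was above, and ATP16 at -0.76 in CO at 120 min below, the other times of that gas. The criterion was not applied to all ORFs, so the count of 10 has no share of all ORFs beside it. Its rate by chance also assumes an equal spread at every time. The SD across all ORFs was 0.374 in N2 and 0.357 in CO at 15 min, and 1.27 and 1.20 at 24 h.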

How the results depend on the processing

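The 24 calls of single members were recomputed 234 times under the alternatives: 185 kept their direction and side of the threshold, 47 kept the direction and lost the call, and 2 reversed. Those were QCR8 at -0.156 and COX12 at -0.352 in N2 with the 15 min ratio subtracted. Members higher in N2, 3 as reported, numbered 5 among ORFs with at least 10 values, 7 with time as a replicate block and 0 with the 15 min ratio subtracted. Members lower in N2, 0 as reported, numbered 1 with the block and 3 with that subtraction. Members higher in CO, 6 as reported, numbered 11 with quantile normalization, 11 with the block and 1 with the subtraction, which also made 1 lower. At 24 h quantile normalization left 3 of 12 higher and made 1 lower, and it gives early and late arrays the same spread by construction. Leaving out 1 time gave 1 to 3 higher and 0 to 2 lower in N2, 3 to 10 higher in CO, 9 to 13 higher at 24 h, and 0 to 9 lower at 60 and 120 min. For 24 h, leaving out 45 min or 24 h was not run. Over all ORFs, 1001 higher and 1146 lower in N2 became 1597 and 1740 with the block and 354 and 676 with the subtraction. In CO 720 and 1098 became 1441 and 1727, and 346 and 761, and were 1147 and 1360 with quantile normalization. At 24 h 1278 and 1425 became 386 and 341 with quantile normalization, and at 60 and 120 min 195 and 527 became 53 and 98. Without 15 min 0 ORFs were called at 60 and 120 min. The gas difference itself had 0 members called under every alternative run. Causes were not tested unless stated.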
